A study of Mus musculus with 6 samples.

Results

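Antisense genes and the protein-coding genes they overlap were described in mouse liver. The members are the 101 rows of a gene table of 23631 rows whose deposited biotype was antisense and whose raw read counts over the 6 libraries summed to at least 100. They came from 870 antisense rows, of which 82 had no count and 769 stayed under that sum. RNA was sequenced in 3 liver libraries labelled as fasted for 48 h and 3 labelled as re-fed. All were from male C57BL/6J mice, an inbred laboratory strain, with no other treatment or allele given and no age given. The labels do not say that the libraries came from separate animals, so fasted or refed livers below means the libraries of that group. The re-fed group is called refed here, although the treatment protocol in the labels speaks of normal feeding, so whether those mice had been fasted beforehand is not settled. The RNA came from homogenised liver, so fewer cells of a type and less RNA per cell cannot be told apart in any result. A partner is a protein-coding row on the same chromosome whose start-to-end interval shares at least 1 base with the antisense row. By this rule 74 members had a partner and 27 had none in the table, giving 88 pairs with 86 distinct partners. Of the 74 members, 61 had 1 partner, 12 had 2 and 1 had 3, and 2 partners, Necab1 and Rapgef4, were each shared by 2 members.

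An antisense RNA is transcribed from the strand opposite to another gene, so part of its sequence can be complementary to that gene's transcript. Such RNAs may start near the promoter of the gene they overlap, run into its far end or lie wholly inside it, and some are known to act on their neighbour in cis while many have no known role. The liver in fasting is known to stop glucose storage and fat synthesis and to take up gluconeogenesis and the burning of fatty acids, with many protein-coding genes changing in the process.

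The members were chosen by the sum of their counts, so a row near the threshold could enter through the group in which it was high. Of the 101 members, 39 had fewer than 50 counts over the 3 libraries of their lower group, and 62 had at least 50 in each group. Counts over the members are therefore given as a description beside the same shares over all genes. Just inside the threshold stood Gm13068 and 5430405H02Rik with 101 counts each and Gm9828 with 100, and just outside it stood E230015J15Rik with 99, Gm15788 with 95 and Gm11586 with 94. The members were low in abundance. They took 0.0543%, 0.0536% and 0.0536% of all counts in the fasted libraries, against 0.0527%, 0.0516% and 0.0511% in the refed libraries. Their summed counts ran from 100 to 18837 with a median of 228, their intervals from 841 to 143882 bases with a median of 5942, and the gene length behind the table's length-scaled signal from 0.39 to 4.049 kb.

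The label antisense was compared with a later annotation, GENCODE M21, through the Ensembl identifiers. It held 98 of the 101 members, 80 of them still as antisense and 18 under another biotype. Among them, 8 rows are protein-coding genes there, including Spcs3, a subunit of the signal peptidase complex, Enho, which encodes the secreted peptide adropin, 5430417L22Rik, now Inafm2, and 1810010H24Rik. Gm16241, now Slmapos2, is a long intergenic RNA there, Cxcl11, a chemokine gene, is a polymorphic pseudogene, and Gm17024 and Gm15708 are sense intronic. The table itself gives no strand. In M21, 85 of the 88 pairs could be matched, and in 82 of them the 2 genes lay on opposite strands. The 3 pairs on the same strand were Gm17024 with Ifrd1, Gm15708 with Bri3 and 5430405H02Rik with 4930518I15Rik. Of the opposite pairs, 30 had the antisense gene inside its partner, 27 met head to head, 22 met tail to tail and in 3 the antisense gene contained its partner. Exons of the 2 genes overlapped in 57 matched pairs and did not in 28. No label or header says how the counting treated strand, so for the 57 pairs reads of the antisense gene and of its partner cannot be told apart with certainty. Reads from introns of a partner could also fall on the antisense row in the other 28 pairs, and this was not tested. Exon overlap is stated below for some pairs only.

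Total counts per library lay between 29574528 and 36026753, at which 3 counts correspond to between 0.0844 and 0.0946 CPM, the counts scaled to library size with TMM factors. Summed hepatocyte markers stood at 109900 to 134700 CPM in fasted and 92450 to 108500 CPM in refed livers, whereas summed T and NK cell markers stayed at or below 0.7 CPM in fasted and 0.956 CPM in refed livers. The summed markers of some other cell types were also apart between the groups. Those of stellate cells and fibroblasts stood at 184.8 to 269.2 CPM in fasted and 108 to 129.7 CPM in refed livers, although of these 7 genes 1 was called higher and 2 were called lower. Those of red cells stood at 81.65 to 137.4 CPM in fasted and 156.6 to 202.4 CPM in refed livers, with 1 of 3 tested genes called lower. Those of the exocrine pancreas stood at 2.435 to 3.445 CPM in fasted and 10.02 to 13.47 CPM in refed livers, over the 2 of 5 listed genes that the table holds. The part of these marker levels in the members' results was not tested. Fasted replicate 3 stood apart: on the second principal component, with 8.7% of the variance, it lay at -35.9, against 18.4 and 15.9 for fasted replicates 1 and 2. The neutrophil transcripts S100a8 and S100a9 reached 48.9 and 71.3 CPM in that library and at most 0.838 CPM in any of the other 5. Among the members, 5 lay over 2-fold above both other fasted libraries in fasted replicate 3 (Gm15690, Gm15318, 1810013D15Rik, BB114351 and Gm13068) and 5 lay over 2-fold below (Gm16559, Fer1l5, Gm17024, Gm12265 and 1700011J10Rik). That is 9.9% of the members, against 6.75% of all genes tested. Values without it stand beside some of the results they change, and not beside all.

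All 101 members passed the filter on low counts and were tested with the rest of the table by edgeR's quasi-likelihood test, with p-values adjusted over 13248 genes and a call at an adjusted p under 0.05. In fasted livers 40 members were higher, 24 were lower and 37 were not called. Among all genes tested, 29.2% were called higher, 30.2% lower and 59.4% in either direction. The share of members called, 63.37%, stood near that background. Groups did not overlap in CPM for 69 of the 101 members, and for 67.2% of all genes tested. The median absolute log2 difference was 1.19 over the members and 0.66 over all genes, and the median signed difference was 0.34 and -0.00. Called differences of at least 2-fold were found in 56 of the 101 members and in 31.7% of all genes tested. Of the 271 long intergenic RNA rows with the same minimum sum, 98 were higher and 64 lower. Called differences of at least 2-fold were found in 123 of these 271 rows, and their median absolute log2 difference was 0.92. With library totals in place of TMM scaling, 38 members were higher and 30 lower, and among all genes 2873 were higher and 5074 lower in place of 3867 and 3999, the median of all genes then being -0.21. Without fasted replicate 3, 41 members were higher and 27 lower. Of the 64 called members, 52 kept their call whichever single library was left out.

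**Figure D1:**
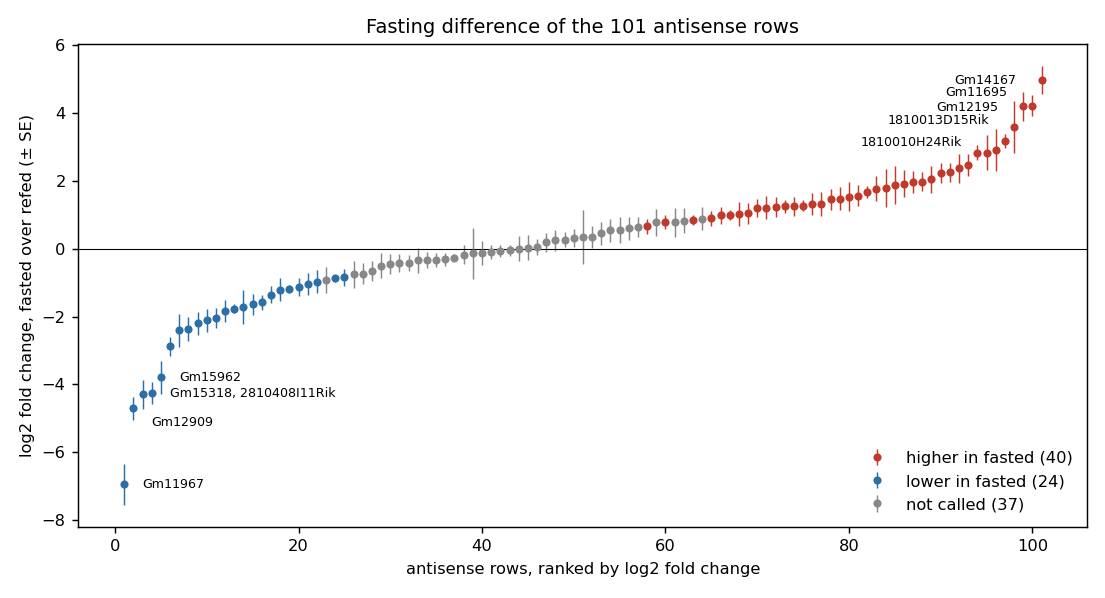
Log2 fold change of fasted over refed livers for the 101 antisense rows, ranked along the horizontal axis, with bars of 1 standard error from edgeR and n = 3 libraries a group. The 40 rows called higher run up to 4.96 for Gm14167 and the 24 called lower run down to -6.94 for Gm11967, with 37 uncalled rows around 0.

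The rows at either end were named among called members whose groups did not overlap, so the gap between their groups follows from the choice. Gm11967 had the lowest log2 difference of the members. It had 0, 1 and 0 counts in fasted livers, against 66, 59 and 49 in refed livers. It was thus close to undetected in all 3 fasted libraries, and the groups did not overlap. Over the groups the refed counts were 167-fold those of the fasted livers, with a 95% exact interval of 29.6 to 6636 that covers counting error only, and the difference was called (edgeR, adjusted p = 4.81e-05).

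Other rows were near the floor in one group. Gm12909, a row with no partner in the table, had 2, 3 and 4 counts in fasted livers, against 66, 87 and 103 in refed livers. Gm15318, also without a partner, had 5, 4 and 17 counts in fasted livers, against 193, 169 and 174 in refed livers. Both had every fasted library below every refed library, and they fell by 4.71 ± 0.35 and 4.30 ± 0.43 on the log2 scale (SE, edgeR, adjusted p = 2.4e-05 and 9.85e-05). Fasted replicate 3 was the highest fasted library for Gm15318, whose log2 difference was -5.22 without it. B230369F24Rik, with 2, 9 and 10 counts in fasted and 47, 32 and 38 in refed livers, fell by 2.41 ± 0.48 on the log2 scale (SE, edgeR, adjusted p = 0.00291), again with no overlap between the groups.

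Some of the rows at the upper end were near the floor in refed livers. Gm14167, which has no partner in the table, had 50, 46 and 35 counts in fasted livers, against 1, 1 and 2 in refed livers. The groups were far apart, with CPM of 1.33 ± 0.233 in fasted and 0.0388 ± 0.0156 in refed livers (SD, n = 3 each), a 31.2-fold difference (edgeR, adjusted p = 4.27e-05). 1810013D15Rik had 24, 17 and 77 counts in fasted livers, against 1, 5 and 4 in refed livers. Its highest value came from fasted replicate 3, and its log2 difference of 3.57 ± 0.76 (SE, edgeR, adjusted p = 0.00471) was 2.64 without that library (edgeR, adjusted p = 0.00134). Gm12195 lies inside Tbc1d9b, which encodes a protein with a Rab GTPase-activating domain, and had 71, 37 and 58 counts in fasted livers, against 4, 2 and 3 in refed livers. Here the groups differed 18.4-fold (edgeR, adjusted p = 9.82e-05), while Tbc1d9b, with 56.5 ± 9.95 CPM in fasted and 47.3 ± 2.73 CPM in refed livers (SD, n = 3 each), was not called (edgeR, adjusted p = 0.153). Without fasted replicate 3, Tbc1d9b was called higher in fasted livers, with a log2 difference of 0.40 (edgeR, adjusted p = 0.00542). The ratio of Gm12195 to Tbc1d9b counts was higher in fasted livers by 3.80 ± 0.42 on the log2 scale (SE, limma, adjusted p = 6.54e-05), and exons of the 2 genes do not overlap in M21.

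Gm16241 was among the most abundant rows. It had 5448, 4716 and 3000 counts in fasted livers, against 659, 608 and 653 in refed livers. Every fasted library was several-fold above every refed library, with fasted replicate 3 the lowest of the fasted ones. Its level was 134 ± 37.7 CPM in fasted and 18.8 ± 1.85 CPM in refed livers (SD, n = 3 each), 7.11-fold higher (edgeR, adjusted p = 4.03e-05). 1810010H24Rik, a protein-coding gene in M21, had 461, 385 and 514 counts in fasted and 51, 66 and 40 counts in refed livers and was 8.99-fold higher (edgeR, adjusted p = 1.61e-05). Spcs3 fell, with 1462, 1604 and 1771 counts in fasted livers, against 2932, 3096 and 3216 in refed livers. Its groups did not overlap, and the log2 difference was -0.88 ± 0.11 (SE, edgeR, adjusted p = 0.000303). 5430417L22Rik, with 18.8 ± 1.8 CPM in fasted and 9.36 ± 1.31 CPM in refed livers (SD, n = 3 each), rose by 1.00 ± 0.15 on the log2 scale (SE, edgeR, adjusted p = 0.000597). None of these 4 rows has a partner in the table, and M21 no longer calls any of them antisense.

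The row with the most counts, Gm15564, had 2776, 2690 and 2909 counts in fasted livers, against 3319, 3938 and 3205 in refed livers. The groups did not overlap in CPM, but the log2 difference of -0.26 ± 0.11 was not called (SE, edgeR, adjusted p = 0.0761). It was called without fasted replicate 3 (edgeR, adjusted p = 0.0487) and without refed replicate 3 (edgeR, adjusted p = 0.0403). With all libraries it was also called under library totals or a minimum mean of 5 CPM. It overlaps the far end of Parp9, an ADP-ribosyltransferase family gene, and the start of Kpna1, an importin alpha gene of nuclear import. Parp9 fell to 21.8 ± 4.7 CPM in fasted livers, against 58.2 ± 3.39 CPM in refed livers (SD, n = 3 each), and Kpna1 had 79.8 ± 4.94 CPM in fasted and 64.8 ± 3.62 CPM in refed livers (SD, n = 3 each). The ratio of Gm15564 to Parp9 was higher in fasted livers by 1.18 ± 0.22 on the log2 scale (SE, limma, adjusted p = 0.00144). Its ratio to Kpna1 was lower, with a log2 difference of -0.56 ± 0.18 (SE, limma, adjusted p = 0.025), but not without fasted replicate 1, fasted replicate 2, refed replicate 1 or refed replicate 2 (limma, adjusted p = 0.0723, 0.0545, 0.0879 and 0.104). Kpna1's call (edgeR, adjusted p = 0.0347) ended without fasted replicate 1, refed replicate 1 or refed replicate 2 (edgeR, adjusted p = 0.107, 0.129 and 0.137), and with library totals (edgeR, adjusted p = 0.489). Enho had 172, 314 and 421 counts in fasted livers, against 427, 541 and 612 in refed livers, a difference that was called only without fasted replicate 3 among the single libraries left out (edgeR, adjusted p = 0.0672 with all libraries and 0.00903 without it). With all libraries, Enho was called lower under DESeq2, limma-voom, library totals or the replicate number as a block. Its partner Dnaic1, with at most 15 counts in any library, was too low to be tested.

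**Figure D2:**
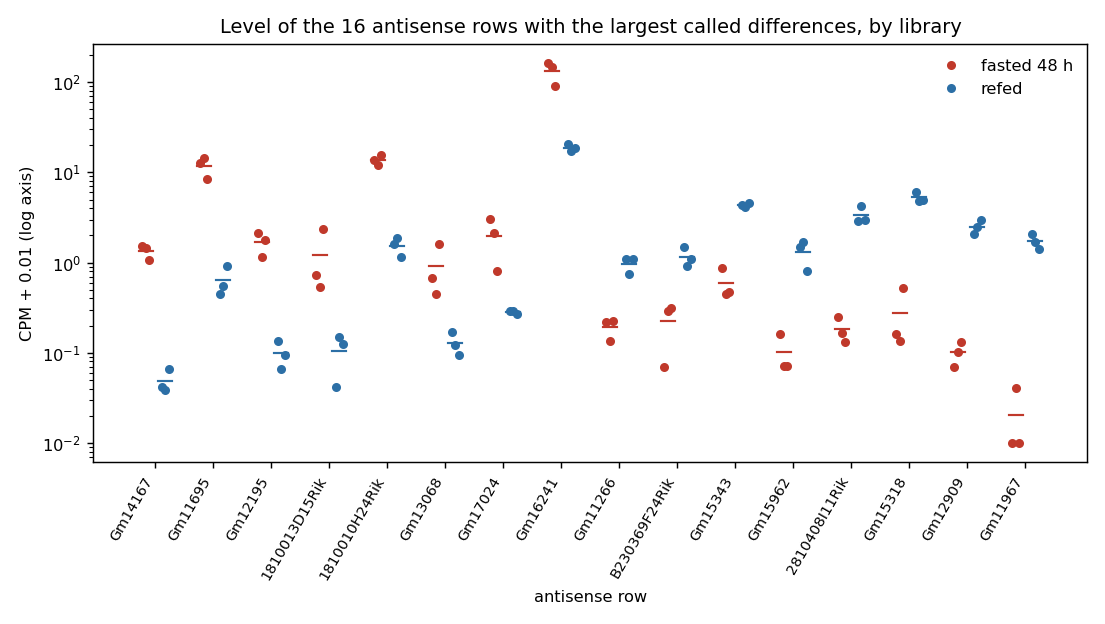
CPM plus 0.01 on a log axis in each of the 3 fasted and 3 refed libraries for the 8 called antisense rows with the highest and the 8 with the lowest log2 fold change, with short lines at the group means. These 16 rows were chosen among called rows whose groups do not overlap, so the gap between their points follows from the choice. Gm11967 has 2 fasted libraries at 0 counts.

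Of the 86 partners, 78 could be tested, and 34 were higher in fasted livers, 26 were lower and 18 were not called. The share of tested partners called was 76.92%, against 59.4% of all genes tested and 59.66% of the protein-coding ones. The difference between these shares was not tested. In 80 pairs both genes were tested. In 30 of these both genes shared a called direction, 20 higher and 10 lower, and in 8 the called directions were opposite. Over all 452 tested pairs of a row that is not protein-coding with an overlapping protein-coding row, 27.7% shared a called direction and 7.52% had opposite ones. A further 24 pairs had an uncalled antisense row beside a called partner, 12 with the partner higher and 12 with it lower. The share of such pairs over all 452 was not counted. The ratio of antisense to partner counts within a library, which does not depend on library scaling, was tested with limma over the same 452 pairs. It was higher in fasted livers in 27 pairs, lower in 15 and not called in 38, against 33.4% higher and 19.9% lower over all such pairs. Among the 55 tested pairs with overlapping exons in M21, 23 shared a called direction, 4 had opposite ones and 23 had a changed ratio (16 higher and 7 lower). Among the 23 tested pairs without exon overlap, 6 shared a called direction, 4 had opposite ones and 18 had a changed ratio (11 higher and 7 lower). The difference between these 2 kinds of pairs was not tested.

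**Figure D3:**
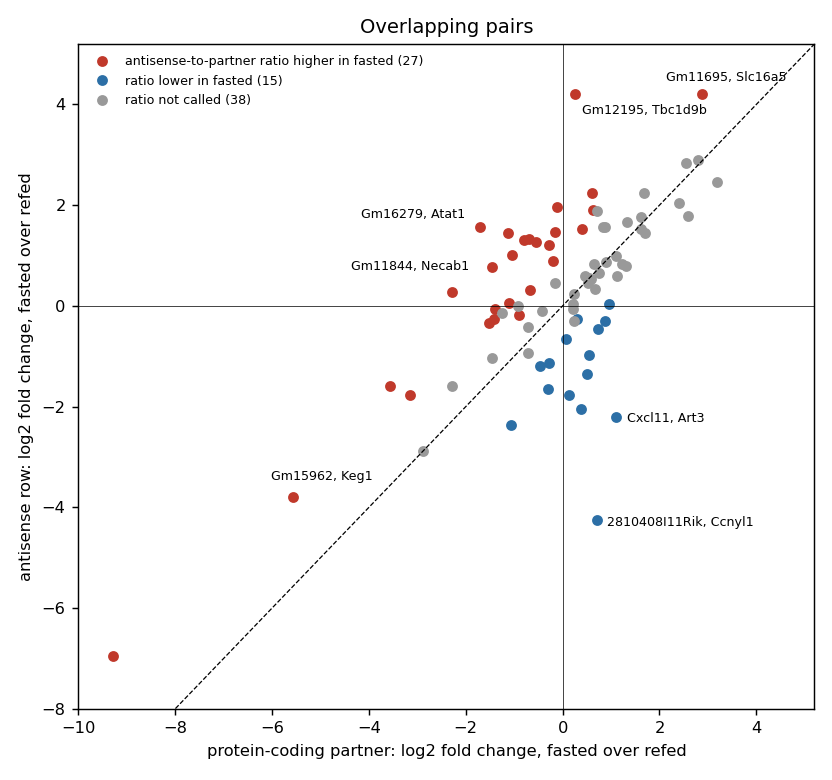
Log2 fold change of fasted over refed livers of the antisense row (vertical axis) against that of its protein-coding partner (horizontal axis) for the 80 pairs with both genes tested, coloured by the limma test of the count ratio, with the dashed line at equal change. Ratios called higher in fasted livers (27 pairs) lie above the line and those called lower (15 pairs) lie below it.

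The pair with the largest ratio change among those called in opposite directions was 2810408I11Rik with Ccnyl1, a cyclin Y-like gene. 2810408I11Rik (chr1:64726445-64737233 in mm9) shares 205 bases with Ccnyl1, start to start. It had 8, 5 and 4 counts in fasted livers, against 92, 150 and 105 in refed livers. Ccnyl1 had 283, 278 and 255 counts in fasted livers, against 148, 192 and 184 in refed livers. The antisense row was thus lower in every fasted library and its partner higher in every fasted library. 2810408I11Rik fell 19.1-fold (edgeR, adjusted p = 3.06e-05) while Ccnyl1 rose by 0.70 ± 0.14 on the log2 scale (SE, edgeR, adjusted p = 0.00277). Per 1000 Ccnyl1 counts there were 15.7 to 28.3 antisense counts in the 3 fasted libraries, against 622, 781 and 571 in the refed libraries, a log2 difference of -4.90 ± 0.32 (SE, limma, adjusted p = 2.03e-06). In M21 the start sites lie 204 bases apart. The promoter window of 2810408I11Rik, chr1:64690610-64690909 of GRCm38.p6, minus strand, covers 250 bases before to 50 after the start in RefSeq. It is shown because it covers the RefSeq start of the antisense gene. The RefSeq window of Ccnyl1, chr1:64691095-64691394, plus strand, lies at higher coordinates and shares no base with it. By these windows the genes start apart and run away from each other in RefSeq, whereas they overlap at their starts in M21. The capitals mark CACGTG, the E-box that ChREBP and MYC proteins can bind, searched on both strands.
2810408I11Rik: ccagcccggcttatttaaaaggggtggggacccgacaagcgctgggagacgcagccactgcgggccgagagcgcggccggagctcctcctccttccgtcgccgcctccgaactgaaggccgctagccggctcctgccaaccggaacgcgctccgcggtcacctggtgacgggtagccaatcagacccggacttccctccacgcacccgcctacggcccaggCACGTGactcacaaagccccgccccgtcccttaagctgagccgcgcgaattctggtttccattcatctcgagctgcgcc

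The motif begins 29 bases before the RefSeq start of 2810408I11Rik. It was present in 7 of the 67 RefSeq windows of members, or 10.4%, in 5.3% of the 94 partner windows and in 7.15% of all 32851 windows in the table. A match describes letters in the window and not a bound site. The window holds 33 CG dinucleotides, against a median of 7 in member windows, 20.5 in partner windows and 7 in all windows.

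Gm16176, now Igf1os, overlaps the start of Igf1, the growth factor gene through which the liver supplies circulating IGF-1. The intervals share 5117 bases (Gm16176 chr10:87289122-87326126 and Igf1 chr10:87321010-87399792 in mm9), with no exon in common in M21. Gm16176 had 29, 44 and 48 counts in fasted livers, against 12, 18 and 21 in refed livers. Igf1 had 10513, 13041 and 11348 counts in fasted livers, against 17427, 24811 and 21604 in refed livers. Neither gene's groups overlapped, and they moved apart. Gm16176 rose 2.48-fold (edgeR, adjusted p = 0.00822) and Igf1 fell by 0.80 ± 0.16 on the log2 scale (SE, edgeR, adjusted p = 0.00274). Antisense counts per 1000 Igf1 counts were 2.76, 3.37 and 4.23 in fasted livers, against 0.689, 0.725 and 0.972 in refed livers, a log2 difference of 2.09 ± 0.31 (SE, limma, adjusted p = 0.000407). Per kb of the table's gene length the antisense row stood at 0.159% of Igf1 over the 6 libraries. The RefSeq windows of both genes are shown because the 2 genes moved apart at a shared locus. In M21 the start sites lie 5116 bases apart, farther than these windows, so the starts differ between the 2 annotations. AGGTCA, the hexamer that many nuclear receptors bind, is in capitals where it occurs on either strand (GRCm38.p6, Gm16176 at chr10:87863344-87863643, minus strand, and Igf1 at chr10:87860861-87861160, plus strand).
Gm16176: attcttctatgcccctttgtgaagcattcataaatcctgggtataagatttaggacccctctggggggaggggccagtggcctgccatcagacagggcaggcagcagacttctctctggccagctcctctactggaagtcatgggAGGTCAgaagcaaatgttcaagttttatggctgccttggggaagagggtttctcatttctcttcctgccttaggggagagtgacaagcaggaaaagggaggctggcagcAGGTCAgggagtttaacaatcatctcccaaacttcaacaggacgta
Igf1: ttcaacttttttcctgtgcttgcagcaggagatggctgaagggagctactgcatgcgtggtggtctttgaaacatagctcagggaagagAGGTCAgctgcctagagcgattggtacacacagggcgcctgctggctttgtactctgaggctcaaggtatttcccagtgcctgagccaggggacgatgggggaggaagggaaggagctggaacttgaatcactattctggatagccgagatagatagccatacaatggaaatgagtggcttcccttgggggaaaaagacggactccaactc

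The hexamer occurs at 2 places in the Gm16176 window, beginning 105 bases before and 4 bases after its RefSeq start. It occurs once in the Igf1 window, 161 bases before the RefSeq start of Igf1. The hexamer was found in 17.9% of member windows, 19.1% of partner windows and 16.26% of all windows. The direct repeat of this hexamer, which PPARalpha binds with RXR and which was searched on both strands, was in none of the member or partner windows and in 0.04% of all windows.

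Cxcl11 lies inside Art3, an ADP-ribosyltransferase gene, with no shared exon in M21. It had 11, 8 and 6 counts in fasted livers, against 30, 45 and 47 in refed livers, whereas Art3 had 40, 47 and 69 in fasted and 26, 23 and 26 in refed livers. Cxcl11 fell 4.61-fold (edgeR, adjusted p = 0.00069) and Art3 rose 2.16-fold (edgeR, adjusted p = 0.0115), and the call of Art3 ended without refed replicate 2 (edgeR, adjusted p = 0.0505). The ratio of the pair fell by 3.24 ± 0.44 on the log2 scale (SE, limma, adjusted p = 0.000202).

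Gm16279 overlaps 3 partners at once and is the only member to do so. It contains Atat1, the gene of the enzyme that acetylates alpha-tubulin, and reaches into 2310061I04Rik at its own start and Mrps18b, a mitochondrial ribosomal protein gene, at its end. Gm16279 had 59, 42 and 58 counts in fasted livers, against 13, 26 and 17 in refed livers, and rose by 1.56 ± 0.31 on the log2 scale (SE, edgeR, adjusted p = 0.00269). Atat1 went the other way, with 71, 96 and 80 counts in fasted livers and 282, 264 and 296 in refed livers, and fell by 1.71 ± 0.18 (log2, SE, edgeR, adjusted p = 0.000112). Both outer partners rose, 2310061I04Rik by 0.88 ± 0.12 and Mrps18b by 0.83 ± 0.11 on the log2 scale (SE, edgeR, adjusted p = 0.000351 and 0.000398). The ratio to Atat1 was higher in fasted livers by 3.29 ± 0.37 on the log2 scale (SE, limma, adjusted p = 7.18e-05), while the ratios to the outer partners were not called (limma, adjusted p = 0.0999 and 0.0752). Without refed replicate 2 the ratio to Mrps18b was called (limma, adjusted p = 0.0498).

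4833422C13Rik likewise joins a partner that rose with it and a partner that fell, each sharing exons with it in M21. It had 87, 55 and 43 counts in fasted livers, against 23, 21 and 26 in refed livers, 2.73-fold higher (edgeR, adjusted p = 0.00467). Acot12, a cytosolic acetyl-CoA hydrolase gene that starts within 360 bases of it in M21, had 337 ± 109 CPM in fasted and 104 ± 11.6 CPM in refed livers (SD, n = 3 each) and rose 3.23-fold (edgeR, adjusted p = 0.000685). Ssbp2, a single-stranded DNA-binding cofactor of transcription met tail to tail, had 60, 63 and 46 counts in fasted livers, against 93, 167 and 126 in refed livers, and fell by 1.12 ± 0.24 on the log2 scale (SE, edgeR, adjusted p = 0.00445). The ratio to Acot12 did not pass (log2 difference -0.25 ± 0.28, SE, limma, adjusted p = 0.48), and the ratio to Ssbp2 was higher by 2.48 ± 0.35 (log2, SE, limma, adjusted p = 0.000254).

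Gm11844 lies inside Necab1, an EF-hand calcium-binding protein gene, without a shared exon in M21. Its counts were 135, 134 and 150 in fasted livers, against 61, 106 and 89 in refed livers, and those of Necab1 were 528, 528 and 344 in fasted and 1631, 1110 and 1226 in refed livers. Gm11844 rose 1.72-fold (edgeR, adjusted p = 0.0112), and Necab1 fell by 1.46 ± 0.24 on the log2 scale (SE, edgeR, adjusted p = 0.00133). A second member at the other end of the same partner, Gm11837, fell, with 28, 22 and 16 counts in fasted livers, against 51, 57 and 33 in refed livers (edgeR, adjusted p = 0.0258). Its call ended without fasted replicate 2, refed replicate 1 or refed replicate 2 (edgeR, adjusted p = 0.0652, 0.0814 and 0.0911). The last 2 pairs called in opposite directions were Gm15601, which rose while its partner Ddhd1, a phospholipase gene, fell, and 4732447D17Rik, which fell while its partner Rapgef4, a cAMP-activated exchange factor gene, rose. Antisense counts per 1000 Ddhd1 counts were 114, 101 and 68.5 in fasted and 22.2, 29.1 and 18.8 in refed livers, and per 1000 Rapgef4 counts they were 4.19, 2.99 and 4.05 in fasted and 14.6, 11.1 and 7.23 in refed livers. The call of 4732447D17Rik (edgeR, adjusted p = 0.0328) ended without fasted replicate 1, fasted replicate 2, refed replicate 1 or refed replicate 2 (edgeR, adjusted p = 0.0751, 0.105, 0.115 and 0.0848).

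**Figure D4:**
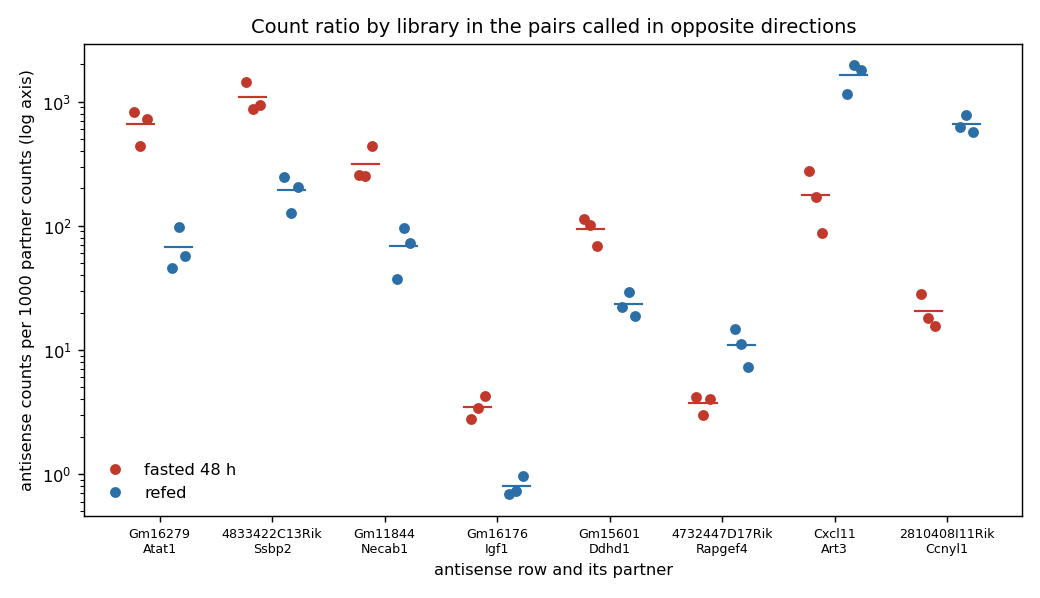
Antisense counts per 1000 counts of the partner, on a log axis, in each of the 3 fasted and 3 refed libraries for the 8 pairs called in opposite directions, with short lines at the group means. Fasted points lie above all refed points in the 5 pairs on the left and below them in the 3 on the right, where 2810408I11Rik with Ccnyl1 has 15.7 to 28.3 in fasted and 571 to 781 in refed livers.

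Metabolic enzymes formed a group of 11 partners. Of the antisense rows beside them 5 were higher in fasted livers, 2 were lower and 4 were not called, and of the enzymes 5 were higher and 6 lower, where 59.4% of all genes tested were called in either direction. The 2 genes shared a called direction in 6 of the 11 pairs and went opposite ways in 1, Gm15601 with Ddhd1, against 27.7% and 7.52% over all such pairs. The ratio was higher in fasted livers in 6 pairs and not called in 5, against 33.4% higher over all such pairs. The roles were assigned after the values were seen, so nothing particular to a role is read from these counts or from those of the groups that follow. Gm15622 lies inside Bhmt, the betaine-homocysteine methyltransferase gene, and had 169, 236 and 191 counts in fasted livers, against 28, 60 and 97 in refed livers. It rose by 1.76 ± 0.37 on the log2 scale (SE, edgeR, adjusted p = 0.0041) beside a rise of Bhmt by 1.62 ± 0.34 (SE, edgeR, adjusted p = 0.00435), and their ratio was not called. Gm15690, inside Sds, the serine dehydratase gene of amino acid catabolism, had 86, 96 and 264 counts in fasted livers, against 40, 21 and 73 in refed livers. Fasted replicate 3 was the highest for both genes, since Sds had 6046, 8369 and 23475 counts in fasted livers, against 2393, 2128 and 2008 in refed livers. Gm15690 had a log2 difference of 1.79 ± 0.57 (SE), and its call (edgeR, adjusted p = 0.0282) ended without fasted replicate 3, refed replicate 1 or refed replicate 2 (edgeR, adjusted p = 0.0518, 0.0823 and 0.0807). Without fasted replicate 3 the log2 difference of Gm15690 was 1.09, and that of Sds was 1.78, against 2.59 with all libraries (edgeR, adjusted p = 4.94e-05).

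Several enzyme genes fell beside an antisense row that was not called. Gm15883, inside the cytochrome P450 gene Cyp2f2, had 183, 146 and 173 counts in fasted livers, against 187, 163 and 195 in refed livers. Its groups overlapped, whereas Cyp2f2 fell to 467 ± 110 CPM in fasted livers, against 1220 ± 224 CPM in refed livers (SD, n = 3 each). The ratio was higher in fasted livers by 1.33 ± 0.26 on the log2 scale (SE, limma, adjusted p = 0.00196). Gm16559 meets Adh1, the alcohol dehydrogenase gene, tail to tail, and had 140, 87 and 7 counts in fasted livers, against 89, 66 and 111 in refed livers. With the single value of 7 from fasted replicate 3 the ratio to Adh1 was not called (limma, adjusted p = 0.602), and without that library it was higher in fasted livers by 1.39 on the log2 scale (limma, adjusted p = 0.00682). Gm15962 and Keg1, a glycine N-acyltransferase-like gene, fell together. Gm15962 had 5, 2 and 2 counts in fasted and 47, 59 and 28 in refed livers, and Keg1 had 57, 191 and 388 in fasted and 9414, 13710 and 8611 in refed livers. Their log2 differences were -3.79 ± 0.49 and -5.57 ± 0.67 (SE, edgeR, adjusted p = 0.000316 and 0.000364), and that of Keg1 was -6.34 without fasted replicate 3. The ratio of this pair was called (limma, adjusted p = 0.0332), but not without fasted replicate 1 or any 1 of the refed replicates (limma, adjusted p = 0.0665, 0.0669, 0.0771 and 0.098). Gm15756, at the far end of Aldh1l1, a folate enzyme gene, had 35, 17 and 36 counts in fasted livers, against 9, 9 and 6 in refed livers. It rose by 1.91 ± 0.40 on the log2 scale (SE, edgeR, adjusted p = 0.00383). Of its exon bases in M21, 74.5% lie in exons of Aldh1l1. On the table's gene lengths it stood at 0.0472% of its partner per kb, the lowest share of all 88 pairs on those lengths. The rise of Aldh1l1 by 0.63 (log2, edgeR, adjusted p = 0.0238) did not pass without any 1 of the refed replicates (edgeR, adjusted p = 0.0677, 0.0834 and 0.0773).

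Transcription regulators formed the largest group, with 13 partners. The antisense rows beside them were higher in fasted livers in 4 cases, lower in 3 and not called in 6, and 5 of the regulators were higher, 4 lower and 4 not called, against 29.2% higher and 30.2% lower over all genes. The ratio was higher in 4 pairs, lower in 4 and not called in 5, against 33.4% higher and 19.9% lower over all pairs. 0610008F07Rik, now Hnf4aos, starts inside Hnf4a, a nuclear receptor that defines hepatocyte gene expression, and had 80, 207 and 129 counts in fasted livers, against 146, 106 and 173 in refed livers. Its groups overlapped and it was not called (edgeR, adjusted p = 0.952), whereas Hnf4a rose to 1210 ± 222 CPM in fasted livers, against 622 ± 37.5 CPM in refed livers (SD, n = 3 each, edgeR, adjusted p = 0.0016). The ratio passed narrowly (limma, lower in fasted livers, adjusted p = 0.0487) and did not pass without fasted replicate 1, fasted replicate 3 or any 1 of the refed replicates (limma, adjusted p = 0.192, 0.11, 0.116, 0.0542 and 0.135).

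Gm17566 starts 418 bases from Prox1, a homeobox gene of liver and lymphatic development, in M21, and had 360, 341 and 348 counts in fasted livers, against 144, 128 and 180 in refed livers. It rose 2.41-fold (edgeR, adjusted p = 0.000293). Prox1, with 2594, 2090 and 1715 counts in fasted livers and 1987, 2915 and 4989 in refed livers, overlapped between the groups and was not called (edgeR, adjusted p = 0.145), except without refed replicate 1 (edgeR, adjusted p = 0.0427). The ratio was higher in fasted livers by 1.77 ± 0.29 on the log2 scale (SE, limma, adjusted p = 0.000749). Gm11266, inside Nfib, a nuclear factor I gene, had 7, 4 and 7 counts in fasted livers, against 34, 26 and 38 in refed livers. It fell by 2.37 ± 0.36 on the log2 scale (SE, edgeR, adjusted p = 0.000704) beside a fall of Nfib by 1.06 ± 0.12 (SE, edgeR, adjusted p = 0.000164). 1300015D01Rik, now Ctcflos, starts inside Ctcfl, a paralogue of the insulator factor gene Ctcf that is known from testis, and rose 4.7-fold with 762, 796 and 519 counts in fasted livers, against 90, 160 and 215 in refed livers (edgeR, adjusted p = 0.000452). It stood above its partner per kb, as Ctcfl had only 77, 69 and 61 counts in fasted livers and 43, 40 and 58 in refed livers. Ctcfl lay at the threshold (edgeR, adjusted p = 0.05) and did not pass without fasted replicate 1, fasted replicate 2, refed replicate 1 or refed replicate 2 (edgeR, adjusted p = 0.125, 0.101, 0.117 and 0.187). 4632419I22Rik, now Brip1os, contains Ints2, an Integrator complex gene, and reaches the end of Med13, a Mediator gene. It fell by 1.77 ± 0.13 on the log2 scale, Ints2 fell by 3.14 ± 0.23 (SE, edgeR, adjusted p = 2.11e-05 and 2.24e-05), and Med13 was not called (edgeR, adjusted p = 0.293).

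Hormones, receptors and secreted proteins made up 5 partners, of which 4 fell and 1 was not called, where 30.2% of all genes were lower. Beside them only Gm16176 at Igf1 was called among the antisense rows. Gm11789 starts inside Gcgr, the glucagon receptor gene, and had 562, 747 and 310 counts in fasted livers, against 821, 934 and 914 in refed livers. Fasted replicate 3 was the lowest, all fasted values lay below all refed values in CPM, and the log2 difference of -0.66 ± 0.28 was not called (SE, edgeR, adjusted p = 0.0789). It was called without fasted replicate 2 and without fasted replicate 3 (edgeR, adjusted p = 0.0136 and 0.0346). With all libraries it was also called under DESeq2, limma-voom, library totals or the replicate number as a block. Gcgr had 213 ± 34.8 CPM in fasted and 203 ± 0.858 CPM in refed livers (SD, n = 3 each) and was not called, and the ratio was lower in fasted livers (log2 difference -0.80 ± 0.23, SE, limma, adjusted p = 0.0155). B430119L08Rik, inside Serpina1c, an alpha-1 antitrypsin gene with near-identical copies whose reads may be split between them, had 820, 798 and 1394 counts in fasted livers, against 1067, 850 and 1080 in refed livers. It was not called, with overlapping groups, and Serpina1c fell by 1.11 ± 0.29 on the log2 scale (SE, edgeR, adjusted p = 0.0115).

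Of the 3 transporter partners 2 rose with their antisense rows, where 27.7% of all pairs shared a called direction. The other one, Slc29a1, was not called (edgeR, adjusted p = 0.288). Gm17080 inside it was called lower in fasted livers, with a log2 difference of -2.05. Their ratio was lower too, with a log2 difference of -2.30 ± 0.42 (SE, limma, adjusted p = 0.00131). Gm11695 starts beside Slc16a5, a monocarboxylate transporter family gene, and had 425, 461 and 274 counts in fasted livers, against 14, 19 and 32 in refed livers. It rose 18.6-fold (edgeR, adjusted p = 2.91e-05) and Slc16a5 rose 7.34-fold, with counts of 4230, 4062 and 3526 in fasted and 251, 631 and 822 in refed livers (edgeR, adjusted p = 0.000392). The antisense row moved more, with a ratio higher by 1.22 ± 0.30 on the log2 scale (SE, limma, adjusted p = 0.00675). Gm13068, inside Slc25a33, a mitochondrial pyrimidine nucleotide carrier gene, had 22, 14 and 53 counts in fasted livers, against 5, 4 and 3 in refed livers. It rose by 2.90 ± 0.61 and Slc25a33 by 2.79 ± 0.35 on the log2 scale (SE, edgeR, adjusted p = 0.00369 and 0.000426), and both were highest in fasted replicate 3, without which the differences were 2.19 and 2.28. Gm17024, a sense intronic row of Ifrd1 in M21, had 100, 68 and 26 counts in fasted livers, against 9, 10 and 9 in refed livers, and Ifrd1, an interferon-related developmental regulator, had 4430, 2952 and 1878 in fasted and 492, 610 and 555 in refed livers. The 2 genes rose by 2.83 ± 0.51 and 2.54 ± 0.29 on the log2 scale (SE, edgeR, adjusted p = 0.00178 and 0.000251), and their ratio was not called (limma, adjusted p = 0.762).

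The remaining rows named for their abundance or their difference had a partner of another kind. Gm16573, inside Parp4, the gene of a vault-associated ADP-ribosyltransferase, rose 1.79-fold with 612, 697 and 863 counts in fasted livers, against 382, 422 and 463 in refed livers (edgeR, adjusted p = 0.00167), and Parp4 rose 2.33-fold (edgeR, adjusted p = 0.00111). Gm17344, which meets Ap1g1, a clathrin adaptor gene, at its end, had 188, 219 and 208 counts in fasted livers, against 458, 496 and 506 in refed livers. It fell by 1.19 ± 0.13 and Ap1g1 by 0.48 ± 0.14 on the log2 scale (SE, edgeR, adjusted p = 0.000135 and 0.0179). Gm15343 had 29, 14 and 15 counts in fasted livers, against 137, 146 and 162 in refed livers, and fell by 2.88 ± 0.29 beside a fall of its partner 1700027D21Rik by 2.89 ± 0.63 (log2, SE, edgeR, adjusted p = 9.24e-05 and 0.00456). Without fasted replicate 2 the log2 difference of 1700027D21Rik was -3.57. This partner was near the floor, with no count in fasted replicate 3. Its mean normalized signal per kb over the 6 libraries was 6.45, against 131.21 for Gm15343. In these 3 pairs both genes moved in the same direction. Exons of the genes in each pair overlap in M21. The shared part was 87.3% of the exon bases of Gm17344, 25.7% of those of Gm16573 and 21.1% of those of Gm15343. Reads of the antisense row and its partner therefore cannot be told apart with certainty here.

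A pair of lists of liver genes were set beside the partners. None of the 20 PPARalpha-regulated genes of fatty acid use overlaps a member. Of these, 14 were higher in fasted livers and none was lower, where 29.2% of all genes tested were higher and 30.2% lower. Of 14 lipogenic genes found, 11 were lower and 1 was higher, and 1 of them overlaps a member. Only 86 of the 17480 protein-coding rows overlap a member, so nothing particular to either list is read from these overlaps.

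Levels of the antisense rows and their partners were compared per kb of gene length, over the mean of the 6 libraries. On the table's length-scaled signal the median over pairs was 46.5 for the antisense row and 699.8 for the partner, and the antisense row stood at a median of 9.95% of its partner. It stood above its partner in 18 of 88 pairs and under 10% of it in 44. The gene length in the table was under 50% of the summed exon length in M21 for 59 of 86 partners and for 21 of 98 matched members. With M21 exon lengths in its place, the median share was 18.83% over 85 pairs, and 24 antisense rows stood above their partner. Pairs with the antisense gene inside its partner had a median share of 2.66% on the table's lengths, and tail-to-tail pairs 18.77%.

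**Figure D5:**
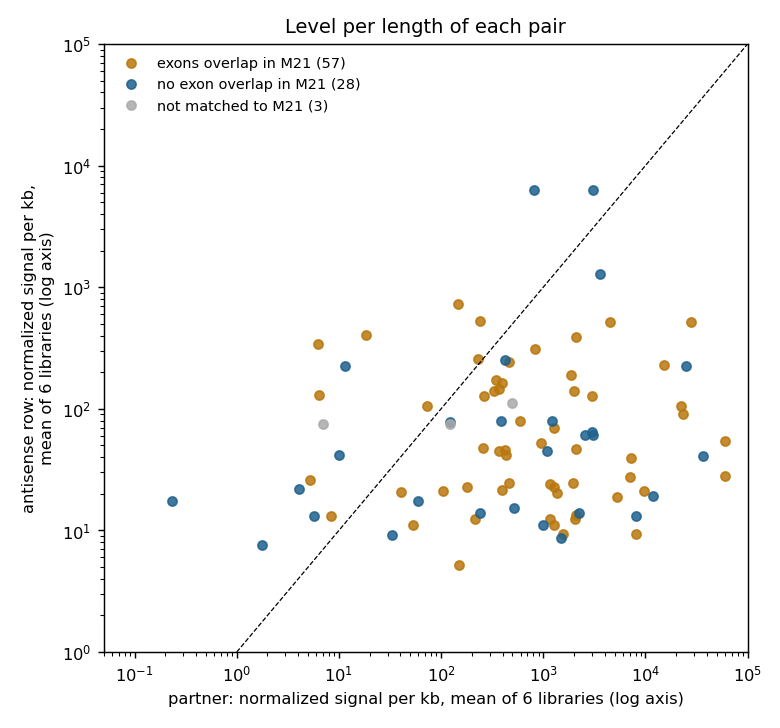
Deposited normalized signal per kb of the antisense row (vertical axis) against that of its partner (horizontal axis), as the mean of 6 libraries on log axes, for 88 pairs coloured by exon overlap in M21, with the dashed line at equal level. Most points lie below the line, and 18 pairs lie above it.

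RefSeq promoter windows were found for 52 members and 66 partners. In 2 pairs, Gm9828 with Btf3 and Gm15952 with Dcun1d1, windows of the 2 genes shared from 209 to 248 bases, so the pairs hold the same letters on opposite strands. TATAAA, the TATA box, was in 9.0% of member windows, 5.3% of partner windows and 13.62% of all windows. TGACGTCA, the site of CREB proteins, was in 1.5% of member windows, 1.1% of partner windows and 1.79% of all. GTAAACA, a core that FOXO and FOXA proteins can bind, was in 6.0% of member windows, 1.1% of partner windows and 3.65% of all.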

How the data were processed

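Liver RNA of 6 samples was analysed from 1 table. Per the file headers, this deposited table gives raw read counts, a normalized signal, the same signal per kb of gene length, and the authors' log2 fold change with its p-value and adjusted p-value. The normalized signal equals the count over a constant of each library. Per the submitters' processing notes, the authors used TopHat2 2.0.10 and Bowtie2 2.1.0, with HTSeq 0.5.4p3, DESeq2 1.0.19 and the build mm9 also named, all without roles. Strand, reads in overlaps and the annotation release are not stated, so reads shared by overlapping genes may be split or lost. Coordinates of rows are the table's. The labels do not say that libraries came from separate animals, and p-values then measure only the spread between these samples, part of which may be technical.

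Counts were fitted over the whole table with edgeR 4.0.16 in R 4.3.3 (filterByExpr with a minimum count of 10, TMM, robust quasi-likelihood test, Benjamini-Hochberg adjustment over 13248 genes, called at 0.05). Log2 fold changes are fasted minus refed. Count ratios were tested with limma 3.58.1 on log2 of the antisense count over the partner count, each plus 0.5, over 452 pairs and adjusted over them. GENCODE M21 gave present names, strands and exons by Ensembl identifier, and RefSeq gave promoter windows (GRCm38.p6). On simulated data, edgeR recovered 56.7% of genes changed by 1 and 90.1% of those changed by 2 on the log2 scale among 13031 genes, and the ratio test 38.0% and 98.0% among 403 pairs. Unchanged genes were called in 0.07% and unchanged pairs in 2.97%. Only 97 and 91 genes of all levels were changed for edgeR, whereas 59.4% of genes were called here. The edgeR shares therefore need not hold for the members. In the authors' deposited table, 41 members had an adjusted p under 0.05 and were higher in fasted livers, 25 were lower, and 64 of these were called here in the same direction.

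The members and lists were chosen with earlier results of these data known. The rule named the 12 members with the most counts, 8 members at either end of the log2 fold changes (called, with groups that did not overlap), the 6 largest ratio changes among pairs called in opposite directions, members of a list of 50 known antisense RNAs (2 found), and all their partners, in all 33 members and 30 partners. Other genes were named after their values were seen, and partners were sorted into roles then too. DESeq2 1.42.0, limma-voom, other scaling, filters, thresholds and overlaps, and the removal of single libraries served as alternatives. Same-numbered libraries of the 2 groups did not deviate together. Results for some partners are not reported here.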

Additional observations from a re-analysis of the deposited data

How the results depend on the processing

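Precision is limited by 3 libraries a group and by low counts. The counts of calls over members, partners and pairs stayed within 1.5 times of those reported under DESeq2, limma-voom, RLE factors, library totals, no count filter and, for ratios, a larger pseudocount or an edgeR interaction term. The replicate number as a block gave 40 members higher and 25 lower, 28 pairs called in the same direction and 7 in opposite directions, although same-numbered libraries correlated at -0.058, -0.028 and -0.095, so the numbers are not taken as pairs.

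With 1 library left out at a time, 35 to 41 members were higher and 19 to 27 lower, 27 to 37 partners higher and 25 to 27 lower, 23 to 32 pairs called in the same direction and 6 to 11 in opposite directions, 23 to 28 ratios higher and 10 to 15 lower, and 3151 to 4281 of all genes higher and 3411 to 4431 lower. Testing for changes above 0.5 on the log2 scale (glmTreat) gave 22 partners higher, 4 pairs in opposite directions, and 2338 of all genes higher and 2591 lower. Fewer rows or pairs enter with a higher minimum or overlap. Requiring a mean of 5 CPM left 8 members higher and 4 lower, 6 pairs in the same and 1 in opposite directions, and 7 ratios higher and 4 lower. A sum of at least 500 counts gave 16 and 7 members, 11 and 13 partners, 14 and 1 pairs, and 11 and 7 ratios, whereas a sum of at least 50, which lets more rows in, gave 44 partners lower, 42 ratios higher and 23 lower. An overlap of at least 50% of the antisense interval gave 21 and 13 partners, 18 and 4 pairs, and 17 and 6 ratios. Pairs without exon overlap in M21, an alternative chosen after seeing the data, gave 6 and 4 pairs and 11 and 7 ratios.

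Log2 differences that changed sign were all uncalled. B430119L08Rik was at -0.15 with library totals, -0.25 without fasted replicate 3 and -0.08 without refed replicate 2, from -0.25 to 0.20 over the libraries left out. 0610008F07Rik was at -0.19 with library totals, -0.051 with limma-voom, -0.046 with the replicate block, -0.39 without fasted replicate 2 and -0.17 without refed replicate 2, from -0.39 to 0.32 over the libraries left out. Med13 was at -0.075 and Gcgr at -0.15 with library totals, and Gcgr from -0.033 (without fasted replicate 2) to 0.19 over the libraries left out. R3hdml was at -0.0026 with library totals and -0.22 without refed replicate 2, reaching 0.70 without refed replicate 3. The cause was not tested. Since the table has no strand column, partner strand was taken from M21 instead, an alternative added after seeing the data, and 27 pairs were then called in the same direction and 8 in opposite directions.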
